A study of Penicillium oxalicum with 6 samples.

Results

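The genes described here are those at the ends of the chromosomes of the mould Penicillium oxalicum, known as a producer of secreted cellulases and amylases. Its locus tags carry 1 letter per chromosome and a running number, so the ends were taken from the tags alone: for each of the 8 chromosomes, I to VIII, the 15 lowest-numbered and the 15 highest-numbered tags in the files. This gave 240 genes at 16 ends, out of 9822 locus tags and 10899 listed IDs. The remaining 9582 locus tags, among them 21 whose letter names no chromosome, served for comparison. An end is called low or high here after its tag numbers. In the RefSeq gene table of assembly ASM172317v3, 231 of the 240 genes were found, and all 231 were also among the 15 outermost genes of the files by table position. The other 9 were placed by tag number alone. The assembly behind the files is not named, so no distance to a telomere is given.

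Telomeres cap the ends of linear chromosomes, and the genes beside them are called subtelomeric. In filamentous fungi, subtelomeric regions often hold genes that differ between strains and species, such as those for secondary metabolites and secreted proteins. In Saccharomyces cerevisiae, genes placed beside a telomere can be silenced by Sir proteins, and the Ku heterodimer, which binds chromosome ends and acts in non-homologous end joining, takes part in this silencing. The series title names as its background a strain without PoxKu70, the gene for one Ku subunit, and the parental libraries are titled PoxKu70, but their genotype field reads WT. The labels thus do not settle whether Ku70 was present in the parental libraries. The files and the gene table give no product names, so no function is assigned to any end gene.

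Messenger RNA of mycelium was sequenced from 3 parental libraries and from 3 libraries with POc04478 silenced after addition of 5 μM copper ions. Mycelium was grown in glucose medium and then held for 24 h in enzyme-producing medium, in which the sole carbon source is Avicel, a cellulose, in the protocol and raw starch in the treatment field. The labels do not say whether parental cultures received copper, so silencing and copper cannot be told apart. They do not say whether replicates were separate cultures, so p-values measure only the spread between these libraries. The targeted gene, POX_c04478, lies 301 tags from the high end of chromosome III and is no end gene. It had 159, 116 and 131 FPKM (fragments assigned to a gene, scaled by transcript length and by library size) in parental replicates 1 to 3 and 15.9, 17.8 and 19.0 FPKM in silenced replicates 1 to 3. In bulk mycelium, fewer expressing cells and less RNA per cell cannot be told apart.

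Genes at the chromosome ends stood at lower levels than the rest. The median over the 240 genes of their mean FPKM across the 6 libraries was 8.55, against 27.8 for the other locus tags. The quartiles were 1.18 and 48.8 FPKM at the ends and 7.33 and 79.2 FPKM elsewhere. Among the end genes, 34 (14.2%) had a mean of at least 100 FPKM, compared with 20.5% of the other tags. FPKM is divided by transcript length, so these levels can be set beside each other. The order held in each library, where the median of the end genes was 6.11 to 7.44 FPKM and that of the other tags 23.4 to 26.7 FPKM. These are descriptions of 2 lists of genes, and genes are not replicates, so no test was made of the difference.

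Some end genes gave no transcript at all in these files. Of the 240, 23 (9.58%) were listed at 0 in all 6 libraries, against 581 of the 9582 others (6.06%). A wider class, under 1 FPKM in every library, held 45 end genes (18.8%) and 10.3% of the others. A further 31 end genes (12.9%, against 7.17% elsewhere) were at 0 in some libraries and above 0 in others. Of the 9 end genes absent from the gene table, 4 were listed at 0 in all libraries, and of the 231 found in it, 19 were (8.23%, against 5.92% for the other tags in the table). The files give no counts, and how fragments shared by near-identical genes were assigned is not given in the sources used here. A value of 0 therefore says only that the gene is listed at 0, and whether end genes have near-identical copies was not tested.

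The silent genes were gathered at a few ends. The low end of chromosome VIII held 6 and the high end of chromosome III held 4, which is 10 of the 23. The low end of chromosome V and the high end of chromosome VIII held 3 each, 7 ends held 1 each and 5 ends held none. With the first pair left out, a choice made after the values were seen, 13 of 210 end genes were silent (6.19%), a share close to that of the other tags. The low level was not set by that pair of ends alone, since without them the median was 11.7 FPKM, still below the 27.8 FPKM of the others. The medians of the single ends ran from 0.0367 FPKM at the low end of chromosome VIII to 34.7 FPKM at the high end of chromosome VI. In 13 of the 16 ends the median lay below that of the other tags. The exceptions were the high end of chromosome VI, the low end of chromosome III at 33.3 FPKM and the high end of chromosome V at 32.1 FPKM.

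**Figure D1:**
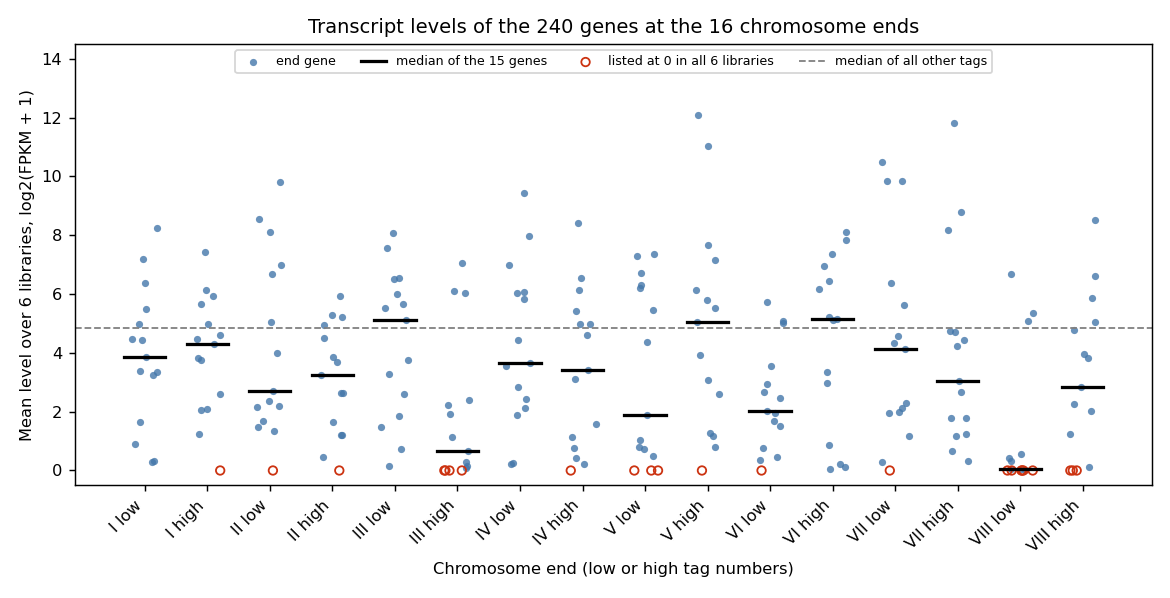
Mean level over the 6 libraries, as log2(FPKM + 1), of the 15 genes at each chromosome end; filled points are genes, open red circles are genes listed at 0 in all libraries, and black bars are medians of the 15. The dashed line is the median of the 9582 other tags, and 13 of the 16 black bars lie below it.

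The low end of chromosome VIII was the quietest. Only 3 of its 15 genes reached 1 FPKM in at least 3 libraries, namely POX_h09379, POX_h09381 and POX_h09389. POX_h09389 had 79.98, 236 and 192 FPKM in parental replicates 1 to 3 and 34.1, 34.1 and 33.9 FPKM in silenced replicates 1 to 3. It stood between neighbours that were silent or nearly so, since POX_h09388 and POX_h09390 were at 0 in all libraries. The high end of chromosome III was built alike, with POX_c04785 at 162 ± 6.85 FPKM (SD, n = 3) in the parental libraries beside POX_c04786, the outermost tag, at 0 in all 6. At the high end of chromosome VIII, the outermost gene POX_h09916 had 0.53 FPKM in silenced replicate 1 and 0 elsewhere, and the next 3, POX_h09915, POX_h09914 and POX_h09912, were at 0 throughout. Beyond them POX_h09911 was expressed in every library.

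Silent genes were not most frequent at the outermost position. Of the 16 outermost genes, 1 was silent, 12 reached 1 FPKM in at least 3 libraries, and the median of their mean levels was 3.35 FPKM. Their levels ranged from 0 for POX_c04786 to 338 FPKM (mean over 6 libraries) for POX_d06152 at the high end of chromosome IV. POX_b01935, outermost at the low end of chromosome II, followed with 274 FPKM, and POX_a00001 and POX_a01934, at either end of chromosome I, with 81.9 and 69.2 FPKM. Silent genes were most frequent at the third and seventh positions, with 4 of 16 each. At the limit of the list, the 15th genes ranged from 0 for POX_a01920 to 4324 FPKM for POX_e07317, and the 16th, just outside it, from 0 for POX_b01950, POX_f08512 and POX_g09362 to 1385 FPKM for POX_h09900.

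Every step of 15 tags farther in had a higher median level than the outermost. The median was 15.6 FPKM for tags 16 to 30 from an end, 27.9 FPKM for tags 31 to 45, and 21.2, 25.2 and 18.1 FPKM for the following steps up to tag 90. Genes beyond tag 90 had a median of 28.8 FPKM. The share of silent genes showed no steady course, at 6.25%, 3.75%, 7.92%, 6.25% and 8.33% in the steps from tag 16 to tag 90 and 5.96% beyond.

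**Figure D2:**
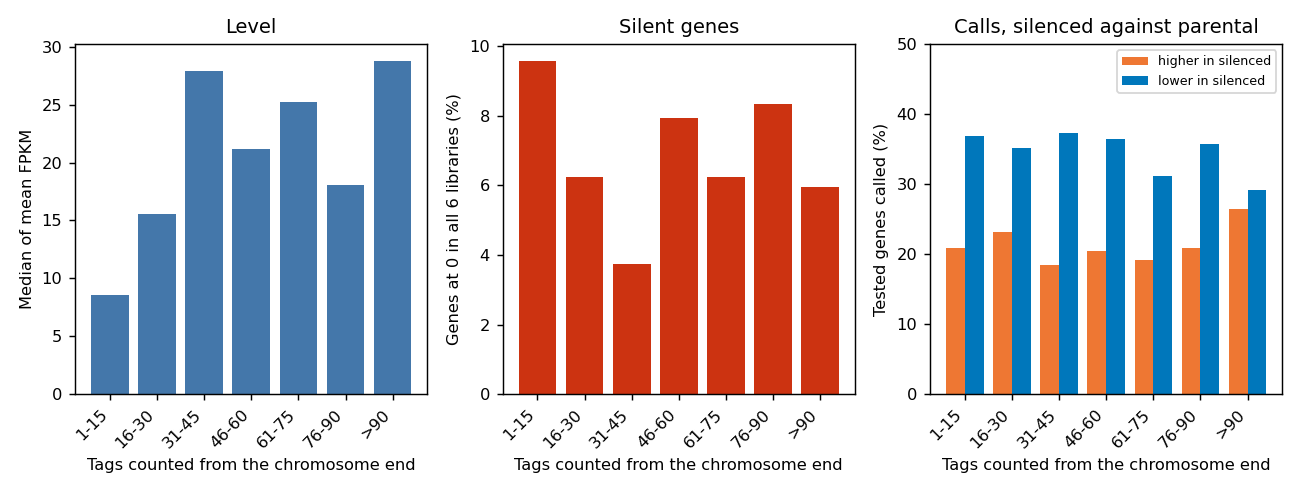
Median level in FPKM, percent of genes listed at 0 in all 6 libraries, and percent of tested genes called higher or lower in the silenced strain, by steps of 15 tags counted from the chromosome ends (240 genes per step) and for all genes beyond tag 90. The level is lowest in the outermost step, at 8.55 FPKM, and lower calls exceed higher calls in every step as deposited; after median-of-ratios scaling higher calls exceed lower ones beyond tag 90 (30.5% against 24.8%).

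A few end genes were among the abundant transcripts and governed the summed level. POX_e07317, the 15th gene from the high end of chromosome V, had the highest mean, 4324 FPKM, followed by POX_g09376 at 3579 FPKM, the second gene from the high end of chromosome VII. POX_e07322, POX_g08542 and POX_g08541 came next, with 2098, 1437 and 918 FPKM. These 5 took 54.1%, 66.5% and 58.9% of the summed FPKM of the end genes in parental replicates 1 to 3 and 37.2% to 38.8% in the silenced libraries. The end genes together, 2.2% of all IDs, held 2.06%, 2.49% and 2.22% of all FPKM in parental replicates 1 to 3 and 1.45%, 1.5% and 1.4% in silenced replicates 1 to 3. Without POX_e07317 and POX_g09376 the shares were 1.18%, 1.1% and 1.32% against 1.27%, 1.33% and 1.27%, and the groups overlapped.

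In the silenced strain the end genes changed about as often as the rest of the transcriptome. Changes were fitted with limma on log2(FPKM + 1) over the whole table, which tested IDs that reached 1 FPKM in 3 or more libraries and called them at an adjusted p (Benjamini-Hochberg) under 0.05. This filter passed 182 of the 240 end genes (75.8%, against 86.5% of the other tags). The 58 that failed were the 23 silent genes and 35 that reached 1 FPKM in fewer than 3 libraries. Among these, POX_f07335 had 13.1 and 18.8 FPKM in silenced replicates 1 and 2 and 0 elsewhere. Of the 182, 105 were called (57.7%), against 54.8% of all tested IDs. The groups did not overlap for 117 end genes (64.3%, against 65.9% of all tested IDs). The filter admits low genes through the group in which they are high, so the 182 do not stand for all 240. Among the called genes, 8 were under 1 FPKM in all parental libraries and 3 under 1 FPKM in all silenced libraries. These 11 passed through the other group alone, so they could only be called in the direction in which they were, and their calls are no support for a change. Other called genes, such as POX_a00014, POX_b01945 and POX_g08539, reached 1 FPKM in only 1 library of the lower group. They also needed the other group to pass, but are not among the 11, so the remaining calls are not free of this effect.

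More of the called end genes fell than rose. In the silenced libraries 67 were lower, 36.8% of those tested against 30.4% of all tested IDs, and 38 were higher, 20.9% against 24.4%. Counting only called genes that moved by 1 or more on the log2 scale, 42 were lower (23.1%, against 15.4%) and 29 higher (15.9%, against 14.7%). The 38 and the 29 both include the 8 genes that could only be called higher. The 67 include the 3 that could only be called lower, of which POX_d06149 and POX_e06163 are among the 42. The median log2 fold change was -0.31 over the tested end genes, -0.09 over the other tested tags and -0.12 over all tested IDs. After median-of-ratios scaling the medians were -0.21 for the end genes and 0.00 for all tested IDs, so that scaling moved both. The counts became 61 lower and 43 higher for the end genes (33.5% and 23.6% of those tested), whereas over all tested IDs the balance turned, to 2431 lower and 2631 higher. The steps from tag 16 to tag 60 had medians of -0.26, -0.33 and -0.21 and lower calls of 35.2%, 37.3% and 36.4%, so the shift was not seen in the outermost genes alone. Tags 61 to 75 had a median of -0.10 with 31.2% lower, and tags 76 to 90 had -0.27 with 35.7% lower. After median-of-ratios scaling the medians of the steps from tag 16 to tag 90 were -0.14, -0.19, -0.10, 0.03 and -0.16. Their lower calls were then 29.1%, 31.6%, 32.8%, 25.1% and 31.6%. Beyond tag 90 the median was -0.08, with 29.2% lower and 26.4% higher, or 24.8% lower and 30.5% higher after median-of-ratios scaling.

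The balance varied with the level of the gene. Of the 80 tested end genes with a mean of 10 to 100 FPKM, 35 fell (43.8%) and 14 rose, against 32.6% and 24.4% of the other tags at that level. Of the 34 at 100 FPKM or more, 15 fell (44.1%) and 7 rose (20.6%), whereas among other tags at that level 23.8% fell and 35.3% rose. Of the 68 under 10 FPKM, 17 fell and 17 rose, against 29.2% and 17.2% of the other low tags. Among these end genes, 8 rises and 3 falls were of genes that passed the filter through a single group, so their direction was fixed. Without them more fell than rose. Genes of this kind were not set apart among the other tags. After median-of-ratios scaling the shares lower and higher were 38.8% and 20% of the end genes at 10 to 100 FPKM, where those of the other tags turned to 28% and 29.1%. Of the end genes under 10 FPKM, 16 were then lower and 20 higher, with genes that passed through a single group still counted.

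**Figure D3:**
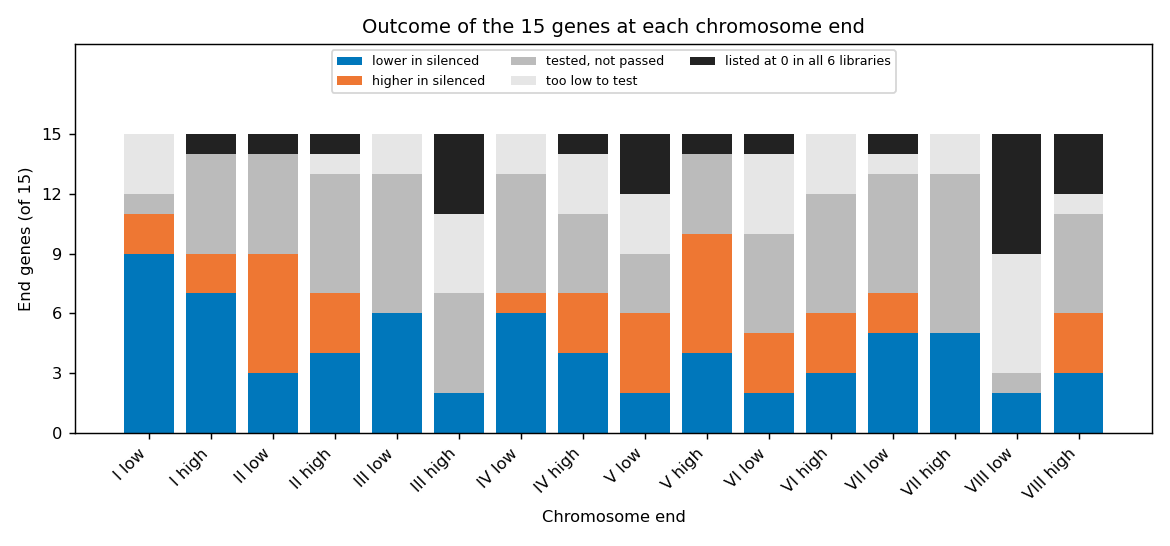
Number of the 15 genes at each chromosome end that were called lower or higher in the silenced libraries, were tested without passing, were too low to test, or were listed at 0 in all 6 libraries. Genes marked too low to test were above 0 in a library but reached 1 FPKM in fewer than 3 libraries. The low end of chromosome I holds the most lower calls, 9, and the low end of chromosome VIII the most silent genes, 6.

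The 16 ends did not move alike. Lower calls outnumbered higher ones at 10 ends, higher calls outnumbered lower ones at 4, and 2 were even. After median-of-ratios scaling these numbers were 9, 7 and 0. Genes that passed the filter through a single group are counted here. Without POX_e07331 to POX_e07328, the high end of chromosome V had more lower than higher calls as deposited. So did the low end of chromosome VI without POX_f07336 and POX_f07345. The high end of chromosome IV was even without POX_d06149. Both directions occurred at 12 ends. The end medians of the log2 fold change ran from -1.08 at the low end of chromosome I to 0.54 at the low end of chromosome V, and 10 of them were below 0. Whether the ends differ from each other was not tested. Where both genes of an adjacent tested pair were called, most pairs shared direction. Among 55 such pairs of end genes, 41 moved the same way (74.5%), as did 62.3% of 2660 such pairs among the other tags. Pairs were formed of consecutive tested genes, so untested genes could lie between them. Some pairs hold genes whose direction the filter fixed, as at the high end of chromosome V. The share expected from the balance of lower and higher calls alone was not worked out. The log2 fold changes of adjacent tested genes correlated at 0.23 over 166 pairs at the ends and 0.19 over 8271 pairs elsewhere (Pearson, across genes of the same libraries, which are not independent).

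**Figure D4:**
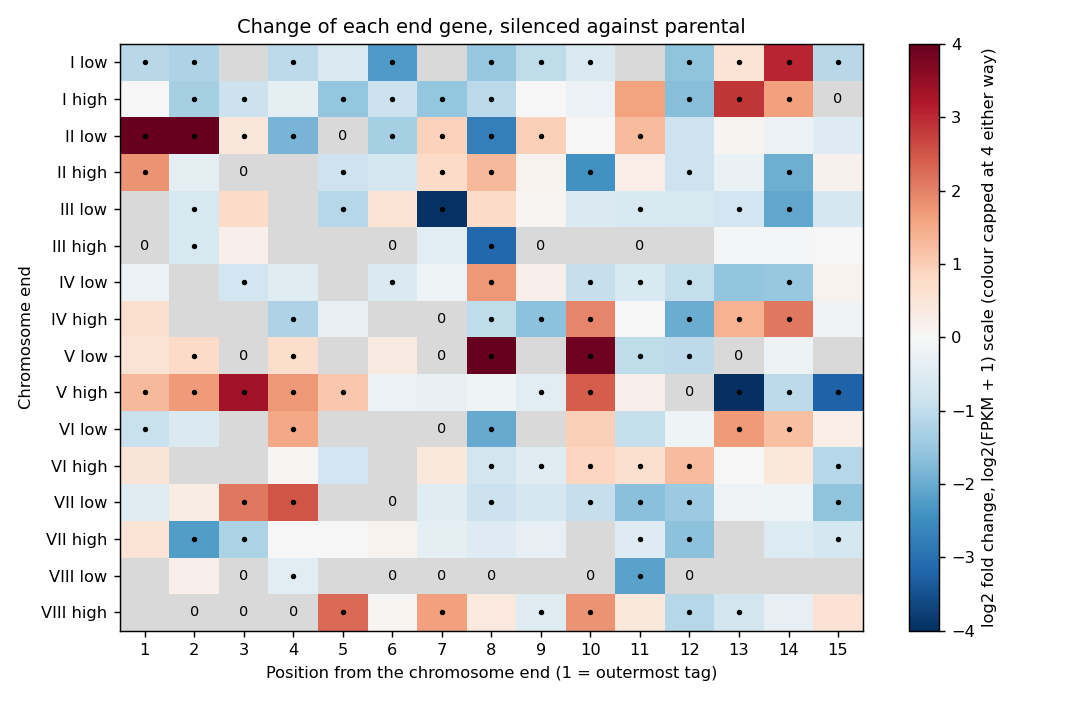
Log2 fold change (silenced against parental, log2(FPKM + 1) scale, colour capped at 4 either way) of each end gene by chromosome end and position, 1 being the outermost tag; red is higher and blue lower in the silenced strain, a dot marks a called gene, grey was not tested and 0 marks genes listed at 0 in all libraries. The first 5 positions at the high end of chromosome V are all red with a dot, 4 of them from genes that could only be called higher, and the low end of chromosome I is mostly blue.

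At the low end of chromosome I, 9 of 12 tested genes fell (75%, against 30.4% of all tested IDs) and 2 rose (16.7%, against 24.4%). POX_a00006, the sixth gene in, had 267, 193 and 263 FPKM in parental replicates 1 to 3 and 38.4, 46.3 and 63.9 FPKM in silenced replicates 1 to 3. All silenced values lay below all parental values, and the log2 fold change was -2.27 ± 0.23 (SE; limma adjusted p = 0.0004). POX_a00002, beside the outermost gene, fell 2.38-fold, from 428 ± 25.1 to 180 ± 20.6 FPKM (SD, n = 3; limma adjusted p = 0.00056). The outermost gene itself, POX_a00001, had 162, 80.9 and 96.8 FPKM against 41.2, 47.7 and 62.5 FPKM. It was called at a log2 fold change of -1.11 (limma adjusted p = 0.016), but without silenced replicate 1 or 2 it did not pass (limma adjusted p = 0.061 and adjusted p = 0.053). Within this falling stretch POX_a00014 went the other way, with 1.15, 0.94 and 0.98 FPKM in the parental libraries and 19.9, 17.8 and 10.8 FPKM in the silenced libraries. That difference was 15.8-fold between group means and 3.04 on the log2 scale, or 1.79 with a pseudocount of 5. Of the parental libraries only replicate 1 reached 1 FPKM, so the gene would not have entered the test without the silenced libraries. It is therefore given without a test. The high end of the same chromosome also fell more than it rose, with 7 lower (50%) and 2 higher (14.3%) among 14. The pair that rose there was adjacent, POX_a01922 and POX_a01921. POX_a01922 had 1.5, 2.11 and 2.80 FPKM against 15.4, 18.8 and 33.7 FPKM, a 10.6-fold rise (limma adjusted p = 0.00054).

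At the low end of chromosome II the outermost 2 genes rose together. The log2 fold change of POX_b01936 was the largest increase among the tested end genes at a pseudocount of 1 and of 5, but not of 0.1, where POX_e07329 of chromosome V had 6.08 against its 4.82. POX_b01936 had 12.6, 44.6 and 26.6 FPKM in parental replicates 1 to 3 and 847, 763 and 528 FPKM in silenced replicates 1 to 3. POX_b01935, the outermost tag beside it, had 51.3, 24.3 and 19.0 FPKM against 612, 560 and 377 FPKM. For both, every silenced value exceeded every parental value by a wide margin, and silenced replicate 3 was the lowest of its group. POX_b01936 rose 25.5-fold (log2 fold change 4.76 ± 0.44, SE; limma adjusted p = 0.00031) and POX_b01935 rose 16.4-fold (4.09 ± 0.38; limma adjusted p = 0.00032). Parental replicate 1 was the lowest of its group for one gene and the highest for the other. The same end also held a strong decrease, POX_b01942, with 51.2, 61.1 and 55.8 FPKM against 5.54, 9.44 and 8.47 FPKM (7.17-fold; limma adjusted p = 0.0002).

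A comparable pair lay at the low end of chromosome V. POX_e06160 had 10.3, 7.65 and 21.3 FPKM in the parental libraries and 239, 306 and 350 FPKM in the silenced libraries. POX_e06162, next but one to it, had 6.36, 6.12 and 14.0 FPKM against 113, 139 and 161 FPKM. The gene between them, POX_e06161, stayed at or below 1.55 FPKM in every library and was not tested. Both groups were well apart for the pair, which rose 22.8-fold and 15.6-fold (log2 fold changes 4.51 ± 0.36 and 3.90 ± 0.31, SE; limma adjusted p = 0.00021 and 0.00022). In both genes parental replicate 3 was the highest of its group.

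At the high end of chromosome V the 5 outermost genes, POX_e07331 to POX_e07327, were all higher in every silenced library than in any parental one. The outer 4 were at most 0.36 FPKM in each parental library and entered the test through the silenced libraries alone, where only an increase could be called, so they are given as values without a test. POX_e07331, the outermost, was at 0 in each parental library and had 1.10, 1.46 and 1.81 FPKM in silenced replicates 1 to 3. It was the one end gene at 0 throughout one group and at 1 FPKM or more throughout the other. POX_e07329 had 0, 0.06 and 0.10 FPKM against 7.53, 9.80 and 12.9 FPKM, and the groups lay far apart. POX_e07330 and POX_e07328 reached 2.73 ± 0.686 and 2.48 ± 0.721 FPKM (SD, n = 3) in the silenced libraries from at most 0.36 FPKM in a parental library. POX_e07327 rose from 4.50 ± 1.60 to 10.5 ± 2.74 FPKM (limma adjusted p = 0.015), though without silenced replicate 2 or 3 it did not pass (limma adjusted p = 0.055 and adjusted p = 0.053). The fitted changes of such low genes depend on the pseudocount: POX_e07329 had a log2 fold change of 3.37 with 1 FPKM, 6.08 with 0.1 FPKM and 1.56 with 5 FPKM.

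Farther in on the same end, large changes in both directions lay within a few genes. POX_e07322 had 233, 910 and 1189 FPKM in parental replicates 1 to 3 and 3101, 3617 and 3537 FPKM in silenced replicates 1 to 3. It rose 4.4-fold (log2 fold change 2.43 ± 0.58, SE; limma adjusted p = 0.012), and by 1.71 without parental replicate 1, its lowest library (limma adjusted p = 0.00044). POX_e07319, 3 genes inward, fell from 343, 239 and 257 FPKM to 5.24, 1.33 and 3.46 FPKM, the largest decrease among the end genes (log2 fold change -6.11 ± 0.36, SE; limma adjusted p = 0.00013). POX_e07318 beside it fell only 2.07-fold, from 276 ± 26.9 to 133 ± 19.1 FPKM (SD, n = 3). POX_e07317, the most abundant end gene, had 7745, 9317 and 6425 FPKM against 916, 865 and 677 FPKM and fell 9.56-fold (limma adjusted p = 0.00018). POX_e07320, between the rising and the falling genes, was at 0 in all 6 libraries, and POX_e07321, beside POX_e07322, had 31.6 to 53.8 FPKM and did not pass.

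**Figure D5:**
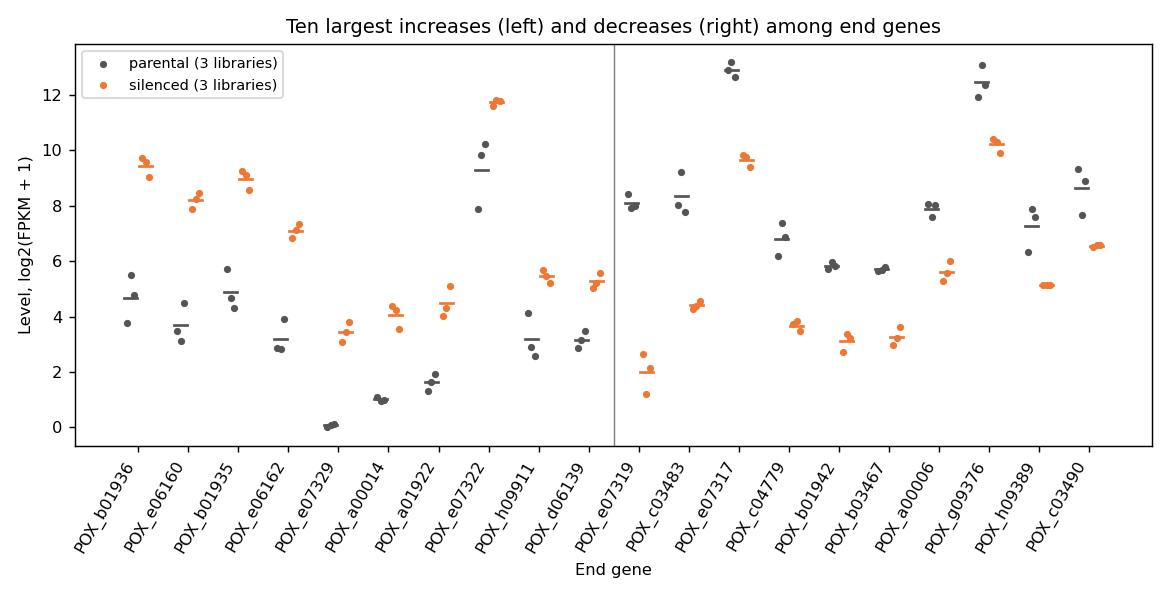
Level, as log2(FPKM + 1), in each of the 3 parental (grey) and 3 silenced (orange) libraries for the 10 largest called increases (left) and 10 largest called decreases (right) on this scale among end genes with a mean of at least 10 FPKM in one group; points are libraries and bars are group means. The groups do not overlap for any of the 20 genes, which the choice of genes required.

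Decreases of abundant genes also occurred at other ends. POX_g09376, the second gene from the high end of chromosome VII, had 3924, 8603 and 5337 FPKM in parental replicates 1 to 3 and 1381, 1259 and 972 FPKM in silenced replicates 1 to 3. It fell 4.95-fold (log2 fold change -2.24 ± 0.32, SE; limma adjusted p = 0.0015). Its inner neighbour POX_g09375 fell from 26.1 ± 13.2 to 9.68 ± 2.90 FPKM, a call lost without silenced replicate 1 or 2 (limma adjusted p = 0.075 and adjusted p = 0.063). Every call at that end was downward, 5 of 13 tested genes (38.5%, against 30.4% of all tested IDs). At the low end of chromosome III all 6 calls were downward as well (46.2% of the tested genes), with 1 higher call added under median-of-ratios scaling. There POX_c03483 had 259, 604 and 219 FPKM against 18.5, 19.9 and 22.7 FPKM, a 17.7-fold fall (limma adjusted p = 0.00034). POX_c03490, farther in, fell 4.72-fold, from 442 ± 222 to 93.7 ± 3.36 FPKM (SD, n = 3). In both genes the parental libraries were spread widely while the silenced libraries lay close together.

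The remaining large decreases were single genes. POX_c04779, at the high end of chromosome III, had 72.1, 165 and 116 FPKM against 12.2, 13.2 and 10.1 FPKM and fell 9.93-fold (limma adjusted p = 0.00034), between POX_c04780 at 1.83 to 4.75 FPKM and the silent POX_c04778. POX_h09389, the gene with the highest level at the quiet low end of chromosome VIII, fell 4.98-fold (limma adjusted p = 0.0037). POX_b03467, at the high end of chromosome II, fell 5.77-fold, from 51.2 ± 2.46 to 8.87 ± 2.31 FPKM (SD, n = 3; limma adjusted p = 0.0002). The outermost gene of that end, POX_b03476, had 0.35, 0.42 and 0.32 FPKM in the parental and 2.47, 3.35 and 5.95 FPKM in the silenced libraries. It passed the filter through the silenced libraries alone and is given without a test.

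Increases were also found at further ends. POX_h09911, at the high end of chromosome VIII, rose 4.6-fold, from 9.38 ± 6.42 to 43.2 ± 7.04 FPKM (SD, n = 3; limma adjusted p = 0.0037). POX_d06139, at the high end of chromosome IV, rose 4.75-fold, from 8.09 ± 1.89 to 38.4 ± 7.50 FPKM, beside POX_d06140, which rose 2.69-fold (limma adjusted p = 0.0004 and 0.00034). At the low end of chromosome VII, POX_g08530 had 145, 609 and 416 FPKM against 1527, 1491 and 1275 FPKM and rose by 2.10 on the log2 scale, or 1.5 without parental replicate 1. POX_g08531 beside it had 0.417 ± 0.105 and 7.34 ± 2.38 FPKM (SD, n = 3), a 17.6-fold difference, and also passed the filter through the silenced libraries alone. These last 2 genes, and POX_d04794 at the low end of chromosome IV, which rose from 225, 342 and 432 FPKM to 1153, 988 and 1041 FPKM, were chosen after their values were seen.

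Among the 16 outermost genes, 12 were tested and 4 were not. Of the 12, 3 were called higher (POX_b01935, POX_b03476 and POX_e07331), 2 fell (POX_a00001 and POX_f07332) and 7 did not pass. Over all tested IDs, 24.4% were called higher and 30.4% lower. POX_b03476 and POX_e07331 had passed the filter through the silenced libraries alone. POX_f07332, at the low end of chromosome VI, fell 1.89-fold, from 40.5 ± 6.13 to 21.4 ± 4.88 FPKM (SD, n = 3; limma adjusted p = 0.01). POX_a01934 had 68.8 ± 11.3 and 69.6 ± 2.18 FPKM and POX_d06152 had 280 ± 163 and 396 ± 71.4 FPKM, and neither passed. At 4 ends the outermost gene was too low to test, and the first testable genes were POX_c03478, POX_c04785, POX_h09379 and POX_h09911. POX_c03478 fell from 2.38 ± 0.111 to 1.18 ± 0.0265 FPKM (SD, n = 3), but without silenced replicate 1 or 2 it did not pass (limma adjusted p = 0.055 and adjusted p = 0.076). POX_c04785 fell 1.55-fold (limma adjusted p = 0.0043), and POX_h09379, with 37.7 and 42.6 FPKM as group means, did not pass.

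The libraries differed in how many end genes they listed at 0. The share was 19.2%, 16.2% and 15.4% in parental replicates 1 to 3 and 14.2%, 14.6% and 14.6% in silenced replicates 1 to 3, against 9.14% to 10.3% and 8.56% to 9.61% of the other tags. A rough estimate of depth from the steps between low FPKM values, relative to parental replicate 1, gave 1.45 for parental replicate 2 and 1.16 for replicate 3. The silenced libraries had 1.05, 1.58 and 1.34. Its part in the shares was not tested. In all, 8 end genes at 0 in all parental libraries were above 0 in a silenced library, and 1 showed the reverse. Among the 8, POX_h09916 and POX_h09387 were above 0 in a single library, as was the reverse gene, POX_a00011. The same counts were not made for the other tags, so they are not read as a trait of the end genes. In parental replicate 1, a log2(FPKM + 1) value at least 1 lower than in replicates 2 and 3 was found for 15 tested end genes (8.24%) and for 6.19% of the other tested tags. In the other libraries this was so for at most 2 end genes. The median SD within a group on that scale was 0.30 for end genes and 0.25 for other tags among the parental libraries, and 0.18 and 0.14 among the silenced libraries.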

How the data were processed

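Each deposited file holds the FPKM values of 1 library, per the file headers. Bcl2fastq and HISAT2 appear in the submitters' processing notes. Neither the counting program nor the build or annotation is given in the sources used here. FPKM is divided by library size, so a change in a few abundant transcripts moves all other values. In 1 file a prefix on the tags was removed. Files of 6 libraries were joined on 10899 IDs. Of 9822 locus tags, 9718 matched the RefSeq table, which served for chromosome names and gene order. The members and lists were chosen with earlier results of these data known.

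Limma 3.58.1 in R 4.3.3 was fitted to log2(FPKM + 1) of the 9341 IDs that reached 1 FPKM in 3 or more libraries, 3 parental against 3 silenced, with a variance trend and no block. P-values were two-sided. The fit was also run on simulated data with independent noise and 200 planted changes. In the real data 5118 of 9341 IDs were called, so that run does not show how the fit performs here. Fold changes on this scale understate the change of low genes. The files give no counts. Relative depth was the set of 6 values that placed most ratios of low values (0.15 to 1.2 FPKM) within 0.03 (log2) of the fitted ratio, 459 of 5378. Low genes are measured more precisely in the deeper libraries.

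Named genes were, in each direction, the 10 largest called changes with a mean of at least 10 FPKM in one group and groups that did not overlap, the 5 highest means, the outermost and outermost expressed gene of each end, the genes beside the limit of the list, and runs of 4 or more. Others were named after their values were seen. Gene groups by product were not used, because no products are annotated.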

Additional observations from a re-analysis of the deposited data

How the results depend on the processing

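The number of changed end genes stayed within 1.5 times 105 under every setting of pseudocount, filter, scaling, variance trend and library weights, from 80 of 136 with a filter at a mean of 5 FPKM to 126 of 182 with library weights, a fit that stopped before its tolerance. It was 75 to 111 with 1 library left out. No called end gene with a value under an alternative changed sign. Replicate numbers gave no sign of pairing, with correlations of same-numbered deviations of 0.001375, 0.02908 and 0.1234, and parental replicates 1 and 2 correlated best with silenced replicates of another number. A replicate block gave 98 changed end genes and 4667 changed IDs. The count over all IDs was 3603 to 5576 with 1 library left out. The median log2 fold change of the end genes was -0.21 after median-of-ratios scaling, -0.18 with no filter and -0.18 with a pseudocount of 5, and -0.43 to -0.27 with 1 library left out. The median level was 5.32, 9.23 and 12.8 FPKM with 10, 20 and 30 tags per end, 9.4 FPKM with genes taken by RefSeq position, 12.4 FPKM with silent genes left out, 11.7 FPKM without the low end of chromosome VIII and the high end of chromosome III, and 7.77 to 8.9 FPKM with 1 library left out. The silent share was 18.8% at under 1 FPKM, 6.19% without those 2 ends and 9.58% to 10.4% with 1 library left out. Genes that passed in no direction changed sign in 4 cases: POX_a01934 to -0.00 with library weights and -0.10 without parental replicate 2, POX_d04787 to 0.07 and POX_g08541 to 0.05 without parental replicate 3. With 1 library left out their log2 fold changes ran from -0.10 to 0.14 for POX_a01934, -0.38 to 0.07 for POX_d04787 and -0.57 to 0.05 for POX_g08541. Of the values of single genes, 670 kept direction and side of the threshold, 8 no longer passed, 5 newly passed and 27 could not be obtained because the gene failed the filter. The causes were not tested. Without fragment numbers, counting error cannot be separated from the spread between libraries.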
